A study of Homo sapiens with 6 samples.

Results

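The genes described here are the protein-coding genes of the leukocyte receptor complex and its close neighbours on the long arm of chromosome 19. They were taken as every gene of the deposited table that is annotated as protein coding and starts between positions 54000000 and 55200000 of chromosome 19 on GRCh38, without RPS9 and NDUFA3. This gave 46 genes of the 58676 listed, and of the 19922 listed as protein coding. The window was selected on measured values of the same 6 libraries, namely TPM near 0 in genes that most cells use and uneven reads on LENG8 in A549 Rec and A549 MOCK. The low levels and the values of LENG8 are therefore given as a description with no test.

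The libraries came from A549, an established human lung adenocarcinoma cell line, grown as 2D cultures. A549 Rec (3 replicates) carried human recoverin cDNA with a myc tag in the pMXs-puro vector, and A549 MOCK (3 replicates) carried the empty vector. Per the methods of the study, A549 Rec was made by retroviral transduction and puromycin selection, and of A549 MOCK the methods give the empty vector alone. The labels describe a transfected plasmid for both and give 6 days of culture. Recoverin, the calcium sensor of photoreceptors, is not normally made by these cells, and the RNA sequencing asked which transcripts differed once it was. The sources do not say whether the 3 replicates of a line were separate cultures, so that p-values measure the spread between these libraries, which may be technical.

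The leukocyte receptor complex holds families of immunoglobulin-like receptors that arose by repeated duplication. They include the leukocyte immunoglobulin-like receptors (LILR), the killer-cell immunoglobulin-like receptors (KIR) of natural killer cells, and the collagen receptors LAIR1 and LAIR2. Many of them bind HLA class I molecules and either restrain or activate the cell that carries them. People differ in which KIR genes they carry, and GRCh38 therefore holds the region in many versions, namely the main chromosome and a series of alternate-haplotype sequences. Among the receptors, and on either side of them, lie genes with housekeeping roles in splicing, tRNA processing, mRNA decay and chromatin, which most cells use.

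Each gene was described by a property of the reference genome that does not depend on the libraries. The exons of GENCODE release 44 were divided into every possible stretch of 150 bases, a read length named in the methods of the study, and each stretch was searched without a mismatch in the 261 alternate-haplotype sequences of GRCh38, of which 43 belong to chromosome 19. In 38 of the 46 genes, from VSTM1 to RDH13 in chromosome order, between 69.0% and 100% of the stretches were present on at least 1 alternate sequence, and in 23 genes all of them were. EPS8L1, the next gene, had 65.3%. The 7 genes beyond it, from PPP1R12C to PTPRH, had 0%. With shorter stretches of 50 bases the share was 94.2% for CNOT3, where 150 bases gave 84.3%, and it was 100% for LENG8 at both lengths.

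Windows from coding exons of 4 genes give examples of what a sequenced fragment of 150 bases would meet. The CNOT3 window was picked among windows found unchanged on no alternate sequence, as 721 of 4586 of its exonic stretches are. The windows of TSEN34, LENG8 and PPP1R12C are the first of the longest coding exon. The contrast of CNOT3 with TSEN34 and LENG8 therefore follows from the choice of windows. The first pair is from CNOT3, and the capitals mark the single base at which the main chromosome and the alternate sequences differ, C111T counted from the 5′ end of the window. The CNOT3 window lies in exon 11 of the MANE Select transcript at chr19:54148358-54148507 on the plus strand of GRCh38. Exons are numbered over all exons of that transcript. The other version of the window was found on 9 alternate sequences.
CNOT3, main chromosome: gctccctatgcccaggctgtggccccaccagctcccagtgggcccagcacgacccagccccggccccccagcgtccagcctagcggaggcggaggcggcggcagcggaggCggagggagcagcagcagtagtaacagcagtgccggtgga
CNOT3, alternate sequences: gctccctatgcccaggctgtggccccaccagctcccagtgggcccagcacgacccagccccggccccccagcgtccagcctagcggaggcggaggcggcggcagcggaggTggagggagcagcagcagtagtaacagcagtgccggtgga
The TSEN34 window (exon 3, chr19:54192116-54192265, plus strand) was found unchanged on 9 alternate sequences, and the LENG8 window (exon 11, chr19:54456636-54456785, plus strand) on 3. Both are given without capitals because no base differs.
TSEN34: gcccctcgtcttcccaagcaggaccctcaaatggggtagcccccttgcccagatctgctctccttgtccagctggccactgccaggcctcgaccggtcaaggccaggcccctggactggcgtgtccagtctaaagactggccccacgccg
LENG8: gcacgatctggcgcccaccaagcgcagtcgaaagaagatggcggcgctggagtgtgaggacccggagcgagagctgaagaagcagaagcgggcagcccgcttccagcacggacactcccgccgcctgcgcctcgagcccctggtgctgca
The PPP1R12C window (exon 1, chr19:55117394-55117543, minus strand, written in the direction of the transcript) was found on 0 alternate sequences and starts with the start codon.
PPP1R12C: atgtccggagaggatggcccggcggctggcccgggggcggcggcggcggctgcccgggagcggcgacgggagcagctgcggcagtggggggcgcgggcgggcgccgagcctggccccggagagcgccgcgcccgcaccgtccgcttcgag

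The deposited unit was TPM, a read count corrected for gene length and for depth, and reads per gene were recovered from it. The recovered reads per library ranged from 15187736 to 18577497. RCVRN, the gene of recoverin, was at 0 TPM in the A549 MOCK libraries and at 322, 338 and 339 TPM in those of A549 Rec. Mitochondrially encoded genes took 13.3% to 17.3% of the TPM in replicates 1 and 2 of both lines, 34.5% in A549 MOCK replicate 3 and 26.9% in A549 Rec replicate 3. As a check of the cell type, 10 of 15 lung epithelial and A549 markers had a mean of at least 1 TPM, among them KRT8 at 2504, KRT18 at 2941, AKR1B10 at 2257, CDH1 at 137 and NAPSA at 2.97 TPM. The other 5 were the lung markers NKX2-1, SFTPA1, SFTPB and SFTPC, at a mean of 0.197 TPM or less, and KRT19 at 0.136 TPM. Of 20 leukocyte markers, 14 had a mean under 1 TPM and 7 were at 0 in every library, including the T-cell genes CD3E and CD3D and the natural killer gene GNLY. The 6 with a mean of at least 1 TPM were ITGAX at 8.15, CD14 at 6.11, ITGAM at 3.18, HCST at 2.24, NKG7 at 1.27 and CORO1A at 1.12 TPM. NKG7 is a natural killer gene, as GNLY is. The summed level of the 20 markers was 22.9 to 24.6 TPM in A549 MOCK against 23.0 to 24.5 TPM in A549 Rec, carried mostly by ITGAX, CD14 and ITGAM.

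Most of the 46 genes were at or near 0. The mean over the 6 libraries was under 1 TPM in 37 genes, 31 were at 0 in every library, and 15 had at least 1 read. The split went with the position in the window, and the kind of gene changed with the position too. All immunoglobulin-like receptor genes, and NLRP2 and NLRP7, lie between VSTM1 and RDH13, so that position and kind of gene cannot be told apart here. Of the 38 genes from VSTM1 to RDH13, 35 had a mean under 1 TPM and 30 were at 0 throughout. EPS8L1, the next gene, had a mean of 1.31 TPM. Of the 7 genes from PPP1R12C to PTPRH, 5 had a mean of at least 1 TPM, and the median of the 7 was 3.36 TPM. At the lower end, VSTM1 just inside the window was at 0 in every library and CACNG6 just outside it had a mean of 3.75 TPM. At the upper end, PTPRH just inside had a mean of 7.48 TPM and TMEM86B just outside 1.12 TPM. In the 67 protein-coding genes within 1 Mb on either side, none of which has a stretch on an alternate sequence, 34 (50.7%) had a mean under 1 TPM and 19 were at 0. The sides differed. Below the window 16 of 23 (69.6%) had a mean under 1 TPM, with a median of 0.0309 TPM. Above it 18 of 44 (40.9%) did, with a median of 6.75 TPM.

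**Figure D1:**
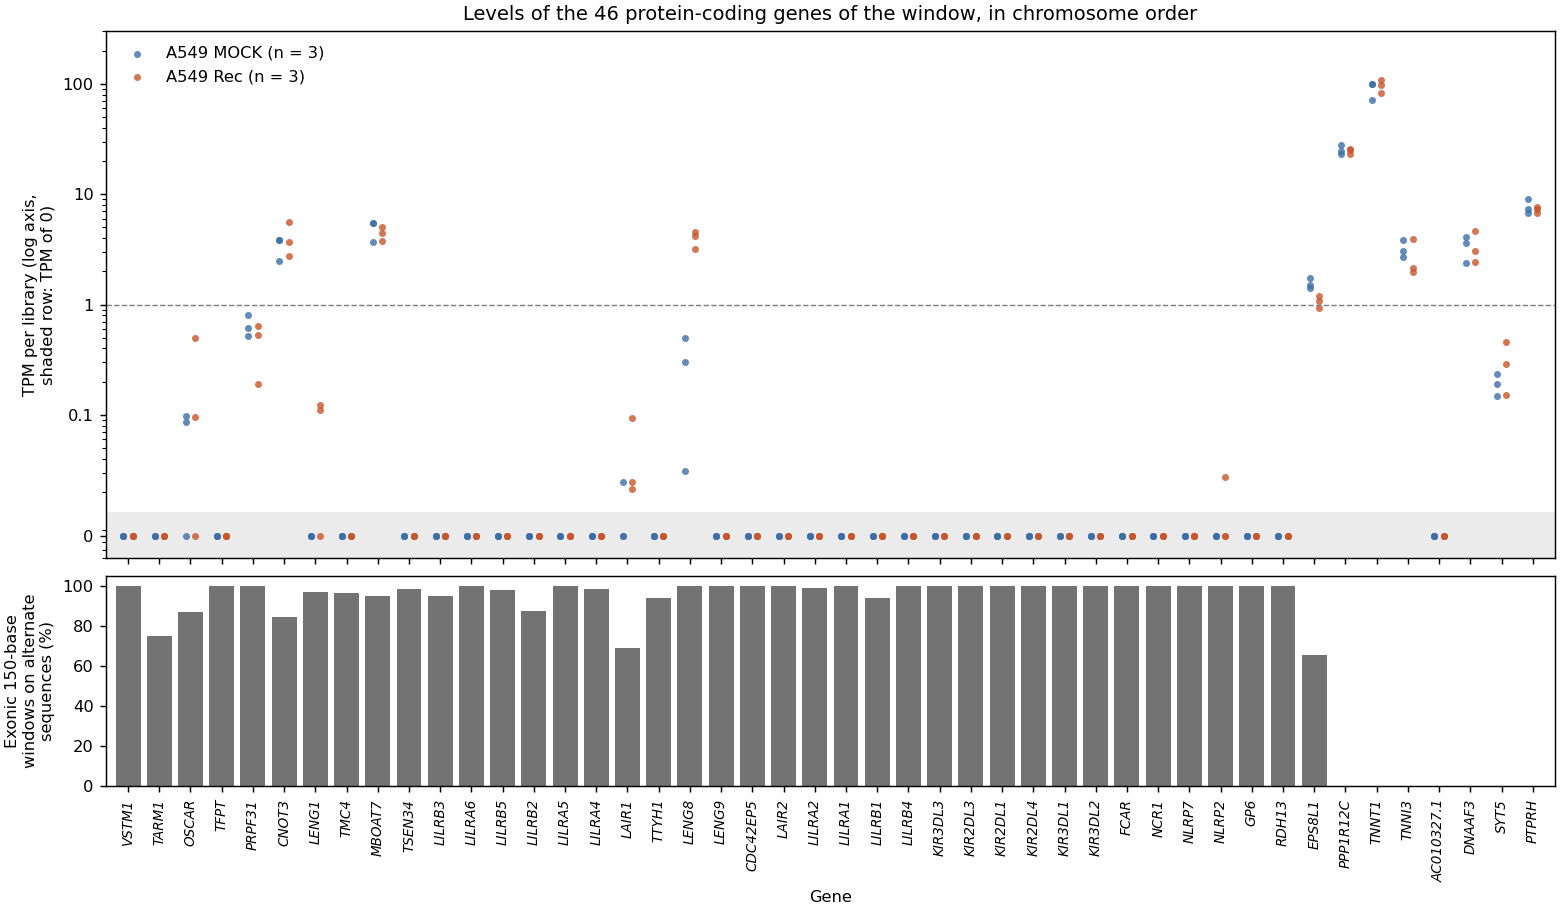
The upper plot gives TPM per library (log axis, with 0 in the shaded row) for the 46 genes in chromosome order, with A549 MOCK in blue and A549 Rec in orange (3 libraries each), and the dashed line at 1 TPM; the lower plot gives the percentage of exonic 150-base stretches present on alternate-haplotype sequences. Between VSTM1 and RDH13, CNOT3, MBOAT7 and, in A549 Rec, LENG8 are the genes above the line, and the 7 genes at the right end, which have no stretch on an alternate sequence, lie mostly above it.

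Few or no reads were counted on the receptor families in any of the 6 libraries. All 6 KIR genes (KIR2DL1, KIR2DL3, KIR2DL4, KIR3DL1, KIR3DL2 and KIR3DL3) were at 0 reads. Counting error alone allows up to 0.274 to 0.382 TPM in a library, taking 3 reads as the limit and the exon length of GENCODE release 44. This limit does not cover reads with several matches that were left uncounted. Every exonic stretch of the KIR genes was present on alternate sequences, and the median number of alternate sequences that hold a stretch was between 15 and 26, depending on the gene. Of the 12 LILR and LAIR genes, 11 were at 0. The remaining one, LAIR1, a collagen receptor that restrains leukocytes, had 7 reads in all (mean 0.0274 TPM). Of the stretches of LAIR2, 34.5% also occurred elsewhere on the main chromosomes, and the highest share in a LILR gene was 11.02% (LILRA6), so that a value for 1 of these genes is uncertain where the counting split or dropped shared reads. Among the other immunoglobulin-like receptors (VSTM1, TARM1, OSCAR, FCAR, NCR1 and GP6), 5 of 6 were at 0. OSCAR, a receptor of osteoclasts, had 0, 1 and 1 reads in A549 MOCK against 1, 6 and 0 in A549 Rec (mean 0.129 TPM). NLRP7 was at 0 and NLRP2, a relative of inflammasome proteins, had 1 read in all. In bulk RNA, a few cells with a transcript and a low level in many cells cannot be told apart.

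The genes with housekeeping roles were low as well, with PPP1R12C as the exception. Of the 11 genes listed as broadly expressed, 7 had a mean under 1 TPM. TFPT, TSEN34, LENG9, CDC42EP5 and RDH13 had 0 reads in all 6 libraries. For counting error alone, 3 reads set a limit of 0.145 to 0.172 TPM for TSEN34 and 0.423 to 0.501 TPM for TFPT. The limit was 0.251 to 0.297 TPM for LENG9, 0.549 to 0.651 TPM for CDC42EP5 and 0.0597 to 0.0708 TPM for RDH13. Reads with several matches that were left uncounted are not covered. LENG1 had 2 reads in all. PRPF31 had 7, 8 and 12 reads in A549 MOCK against 7, 3 and 9 in A549 Rec, with a mean of 0.547 TPM. Its exons share 31.3% of their bases with overlapping genes, among them TFPT on the opposite strand, and LENG1 shares 37.7% with CNOT3. The strand setting of the counting is not known, so that reads from such pairs cannot be told apart. The 4 genes with a mean of at least 1 TPM were LENG8, CNOT3, MBOAT7 and PPP1R12C. PPP1R12C, a regulatory subunit of myosin phosphatase, was the highest of them at 25.1 TPM and is the one with no stretch on an alternate sequence.

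Each of these genes, except LENG1 and LENG9, was set beside a list of partners in the same complex, or of relatives, that lie outside the window. LENG1 and LENG9 had no such list. CNOT3 is a core subunit of the CCR4-NOT deadenylase, which shortens the poly(A) tails of mRNA. Its mean of 3.69 TPM was below all 10 other subunits, which ranged from 8.85 TPM (CNOT6L) to 88.4 TPM (CNOT1) with a median of 24.3 TPM. TSEN34 is a catalytic subunit of the tRNA splicing endonuclease. It was at 0, whereas TSEN15, TSEN54 and CLP1 ranged from 11.4 to 32.3 TPM. TFPT, a subunit of the INO80 chromatin remodeller, was at 0 beside 13 partners with a median of 20.3 TPM and a range from 0.745 TPM (INO80B) to 126 TPM (RUVBL2).

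PRPF31 holds the spliceosomal tri-snRNP together. Of its 13 partners, 12 lay above it, with PRPF6 the highest at 144 TPM and a median over all 13 of 45.7 TPM. The exception was PRPF8, the central protein of the spliceosome, with a mean of 0.00262 TPM. PRPF8 lies outside the window, and it was the only one of the 13 partners with stretches on alternate sequences, where 100% of its stretches were present. RDH13, a mitochondrial retinol dehydrogenase, was at 0 beside 5 relatives from 0.432 TPM (RDH12) to 72.3 TPM (DHRS3). CDC42EP5, an effector of the GTPase CDC42, was at 0 beside CDC42EP1, CDC42EP3 and CDC42EP4 at 12.3 to 63.5 TPM. CDC42EP2 was at 0 too, and it has no stretch on an alternate sequence.

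MBOAT7, which attaches arachidonic acid to lysophosphatidylinositol, had a mean of 4.66 TPM. This was below the 5 genes listed as its relatives, some of them by enzyme activity and not by protein family. They ranged from 9.72 TPM (MBOAT1) to 63.1 TPM (LPCAT3). One of these relatives, LPCAT1, has 97.5% of its stretches on alternate sequences and varied from 3.48 to 19.1 TPM over the 6 libraries. LENG8, a SAC3-domain protein, had a mean of 2.11 TPM beside 13.8 to 35.7 TPM in 3 proteins related to it through that domain or its binding partners. PPP1R12C, at 25.1 TPM, was above both PPP1R12A (17.1 TPM) and PPP1R12B (4.33 TPM). The lists hold genes of unequal abundance in any cell, so that a level below them is a description and not a test.

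**Figure D2:**
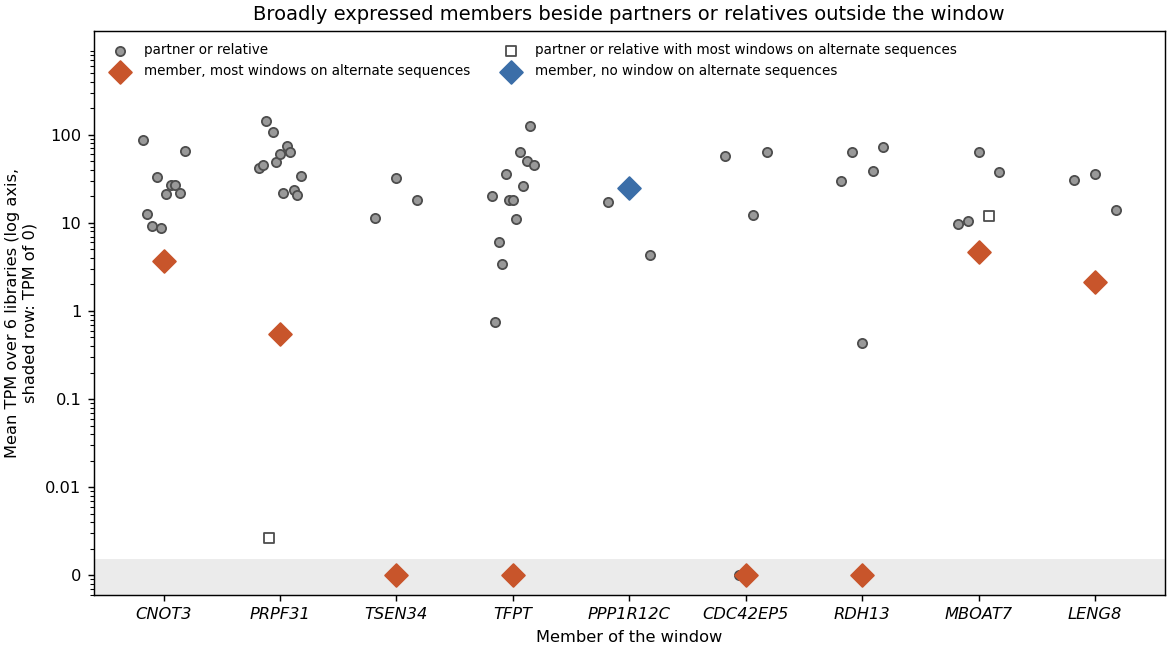
Mean TPM over the 6 libraries (log axis, with 0 in the shaded row) of 9 broadly expressed genes of the window (diamonds) and of their partners or relatives outside it (circles, or open squares where most stretches lie on alternate sequences). The blue diamond, PPP1R12C at 25.1 TPM, lies above both its relatives, and the orange diamonds lie below nearly all of theirs, with PRPF8 at 0.00262 TPM below PRPF31 and CDC42EP2 at 0 level with CDC42EP5.

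The same property was tabulated for all protein-coding genes other than the 46. Of 18737 genes with no stretch on an alternate sequence, 36.8% had a mean under 1 TPM and 16.0% were at 0 in every library. Of 648 genes with at least 75% of their stretches there, 84.7% had a mean under 1 TPM and 57.7% were at 0. No test was made of this difference. The classes were not matched for the kind of gene or the tissues that use it, so that copies and kind of gene cannot be told apart here. Whether the index to which the authors mapped the reads held the alternate sequences, and how reads with several matches were counted, is not given in the sources used here. The part of such copies in the levels of the 46 genes was not tested.

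**Figure D3:**
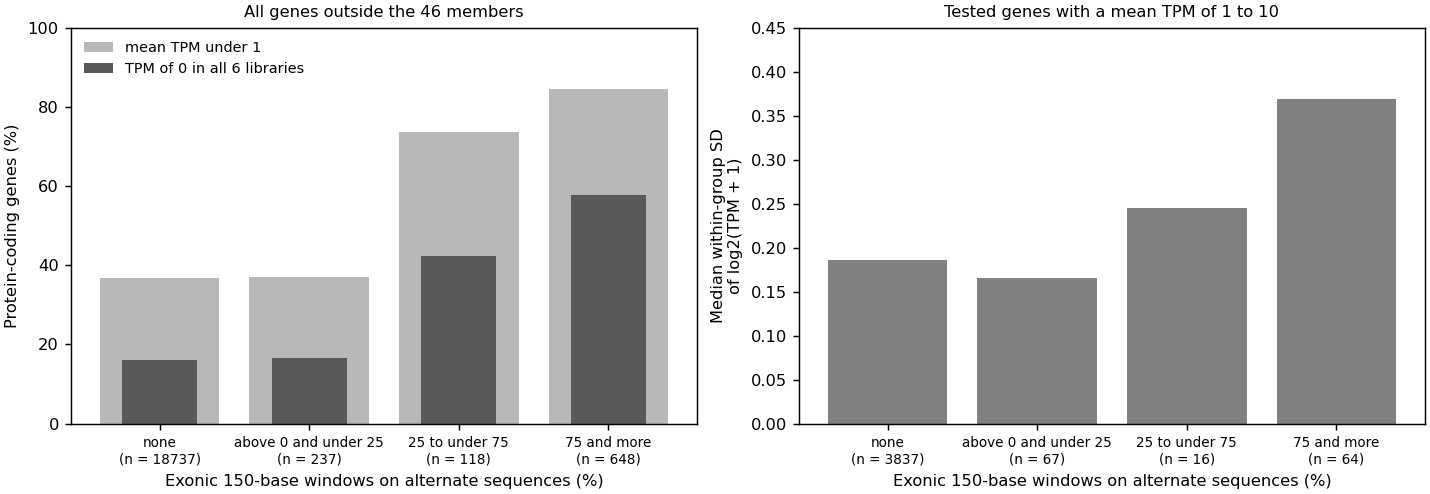
The left plot gives the percentage of protein-coding genes outside the 46 with a mean under 1 TPM (light bars) and at 0 in all 6 libraries (dark bars), by the percentage of exonic 150-base stretches on alternate sequences. The right plot gives the median within-group SD of log2(TPM + 1) for tested genes with a mean of 1 to 10 TPM, which is 0.187 in the class with no such stretch and 0.369 in the class with 75% and more; n under each bar counts genes.

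Of the 9 genes with enough signal to be tested, LENG8 (ENSG00000167615, plus strand, positions 54448887 to 54462037) had the largest difference between the lines. In the order of the replicate numbers, as in all values given by library, A549 MOCK gave 1, 16 and 11 reads and A549 Rec gave 134, 171 and 108 reads. In TPM these were 0.0307, 0.502 and 0.303 against 4.15, 4.52 and 3.17. The lines did not overlap, and A549 Rec was the higher. The mean was 0.279 ± 0.237 TPM in A549 MOCK against 3.95 ± 0.700 TPM in A549 Rec (SD, n = 3 each), a ratio of 14.2. The ratio rests on few reads in A549 MOCK, being 9.81 without A549 MOCK replicate 1 and 23.7 without A549 MOCK replicate 2. The difference in log2(TPM + 1) was 1.96, and the added 1 makes it smaller than the ratio. With a pseudocount of 0.1 it was 3.66, and with voom on the recovered reads 4.34. After scaling to equal depth, the variance of the reads was 6.51 times their mean in A549 MOCK against 2.27 times in A549 Rec, where counting alone gives a value near 1.

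All 4107 exonic stretches of LENG8 were present on alternate sequences, so that 0 were left that only the main chromosome carries. CNOT3 had 721 of 4586 such stretches left and MBOAT7 224 of 4214. TSEN34 had 49 of 2946 left and 0 reads, and PRPF31 had 0 of 1010 left and some reads in every library. These genes are examples, and the relation of such stretches to the reads was not tested. Of the exon bases of LENG8, 6.61% overlap LENG8-AS1 and LENG9 on the opposite strand, and both of these had 0 reads in every library. Without LENG8, the summed level of the other 37 genes from VSTM1 to RDH13 was 7.08 to 10.1 TPM in A549 MOCK against 7.85 to 11.5 TPM in A549 Rec, and the groups overlapped.

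CNOT3 (ENSG00000088038, plus strand, positions 54137717 to 54155708) differed between libraries of the same line. Its reads were 132, 131 and 96 in A549 MOCK against 94, 224 and 134 in A549 Rec, and the variance of the depth-scaled reads in A549 Rec was 16.0 times their mean. In TPM these were 3.81, 3.86 and 2.49 against 2.74, 5.57 and 3.70, with A549 Rec replicate 2 the highest and the groups overlapping. Its within-group SD of log2(TPM + 1) exceeded that of 68.8% of tested genes of a like level (a mean TPM within 1.5 times of its own). MBOAT7 was steadier, at 5.51, 5.48 and 3.70 TPM in A549 MOCK against 4.46, 5.08 and 3.73 TPM in A549 Rec, with both replicate 3 libraries the lowest. Its SD exceeded that of 49.6% of genes of a like level. For LENG8 this share was 37.9%, on a scale that compresses levels under 1 TPM such as those of A549 MOCK.

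**Figure D4:**
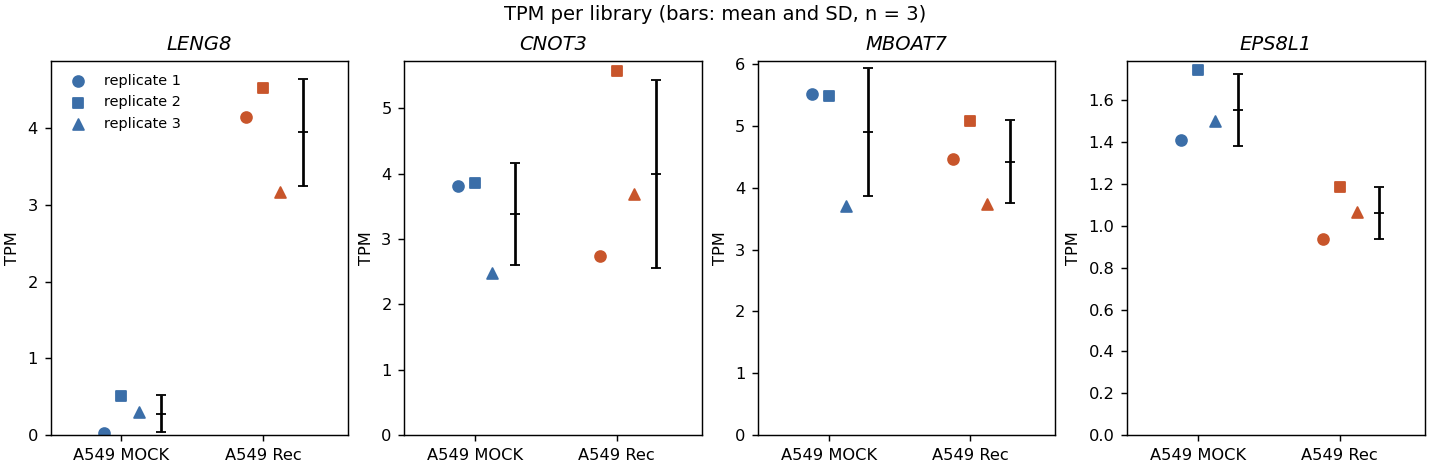
TPM per library (linear axis from 0) of LENG8, CNOT3, MBOAT7 and EPS8L1 in A549 MOCK (blue) and A549 Rec (orange), with symbols for replicates 1 to 3 and bars for the mean and SD of 3 libraries. The groups do not overlap for LENG8 (0.0307 to 0.502 against 3.17 to 4.52 TPM) and EPS8L1 (1.41 to 1.75 against 0.937 to 1.19 TPM), and they overlap for CNOT3 and MBOAT7.

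The comparison of A549 Rec with A549 MOCK used limma on log2(TPM + 1) for the 17408 genes with at least 1 TPM in 3 or more of the 6 libraries. Of the 46 genes, 9 passed this filter, and LENG8 passed it through its A549 Rec libraries alone. A DEG needed both a 2-fold change and a p under 0.05 after Benjamini-Hochberg adjustment. The study set these thresholds, and a further one on q, on DESeq2 results from counts. The change here is on log2(TPM + 1), so that the number of DEGs cannot be set beside that of the study. LENG8 was chosen on its values and is left out of the counts that follow. Of the other 8 genes, 0 were DEGs in limma, where 0.00574% of all genes tested were (1 gene, RCVRN). At an unadjusted p under 0.05 there were 0 of the 8, beside 2.06% of all genes tested. Voom on the recovered reads tested 11 genes of the window. Apart from LENG8, EPS8L1 was the only one of them under 0.05, beside 437 of 21721 genes over the whole table. The groups did not overlap in 1 of the 8, EPS8L1, which was lower in A549 Rec, beside 5.16% of all genes tested (2.47% higher and 2.69% lower). The median log2 difference of the 9 genes, LENG8 included, was −0.03, and that of all genes tested was 0.02.

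EPS8L1 (ENSG00000131037, plus strand, positions 55072020 to 55087923), an EPS8-like regulator of the actin cytoskeleton, lies at the edge of the stretch covered by alternate sequences. Its reads were 38, 46 and 45 in A549 MOCK against 25, 37 and 30 in A549 Rec. In TPM these were 1.41, 1.75 and 1.501 against 0.937, 1.19 and 1.07, with every A549 Rec library below every A549 MOCK library. The log2 difference was −0.31 (SE 0.19, 95% confidence interval −0.76 to 0.15), and its adjusted p was 0.9997 in limma. With a pseudocount of 0.1 the difference was −0.51, and with voom on the recovered reads −0.55. With 3 libraries against 3, an exact two-sided permutation test cannot give a p below 0.1. Its SD within groups was small, exceeding that of 3.17% of genes of a like level.

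The other 7 tested genes had overlapping groups, and none passed the test (adjusted p = 0.9997 from limma for each). The log2 difference was 0.17 for CNOT3 (95% confidence interval −0.41 to 0.75) and −0.11 for MBOAT7 (−0.54 to 0.31). A difference of 2-fold on this scale lies outside both intervals. Without A549 Rec replicate 2 the difference of CNOT3 was −0.05.

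At the end of the window with no alternate copies, the levels were higher and the differences small. PPP1R12C (ENSG00000125503, minus strand, positions 55090913 to 55117559) was at 23.4, 24.8 and 27.8 TPM in A549 MOCK against 25.4, 25.7 and 23.4 TPM in A549 Rec, and its log2 difference was −0.03 (95% confidence interval −0.28 to 0.23). Scaled to equal depth, the variance of its reads was 34.0 times their mean in A549 MOCK, where replicate 3 was the highest with 1206 reads, and 0.0544 times in A549 Rec. This ratio grows with the number of reads, and the within-group SD of PPP1R12C exceeded that of 19.8% of genes of a like level. TNNT1, the slow skeletal muscle troponin T, was the highest gene of the window, with 99.5, 100.4 and 71.8 TPM in A549 MOCK against 98.6, 108 and 82.4 TPM in A549 Rec. Both replicate 3 libraries were the lowest of their line, and the log2 difference was 0.10 (−0.31 to 0.51).

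Next to TNNT1, TNNI3, the cardiac troponin I, was lower, with 3.81, 2.69 and 3.07 TPM in A549 MOCK against 1.97, 3.95 and 2.15 TPM in A549 Rec (log2 difference −0.21, −0.77 to 0.34). DNAAF3, which helps to assemble the dynein arms of cilia, had 3.61, 4.12 and 2.37 TPM in A549 MOCK against 2.43, 4.61 and 3.05 TPM in A549 Rec (log2 difference −0.01, −0.59 to 0.56). A549 Rec replicate 2 held the highest value of both genes, as it did for CNOT3. TNNI3 and DNAAF3 share 24.4% and 31.4% of their exon bases with overlapping annotated genes, among them AC010327.1, which was at 0 in every library.

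PTPRH, a receptor tyrosine phosphatase of epithelia, had 7.31, 6.82 and 8.98 TPM in A549 MOCK against 7.61, 7.33 and 6.82 TPM in A549 Rec (log2 difference −0.07, −0.38 to 0.24). SYT5, a synaptotagmin of vesicle release, stayed below the filter, with 4, 5 and 7 reads in A549 MOCK against 4, 9 and 13 in A549 Rec. Of the other tissue-restricted genes of the window, TMC4 and TTYH1 were at 0 in every library, and most of their stretches were on alternate sequences. The levels of TNNT1 and PPP1R12C rest on 875 to 1375 and 910 to 1206 reads per library, and those of TNNI3 on 20 to 47.

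Among the protein-coding genes tested other than the 46, differences of at least 2-fold between the group means on the log2(TPM + 1) scale were found in 4 of 11876 genes with no stretch on an alternate sequence (0.0337%), and in 6 of 88 genes with at least 75% of their stretches there (6.82%). The classes differ in level, with 3837 of the 11876 and 64 of the 88 at a mean of 1 to 10 TPM. At a mean of 1 to 10 TPM, the median within-group SD of log2(TPM + 1) was 0.187 in the first class and 0.369 in the second. These shares are descriptions over genes, which are not independent replicates.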

How the data were processed

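RNA sequencing of A549 MOCK and A549 Rec (3 libraries each, grouped by the labels) was analysed. Per the methods and the processing notes, reads were checked with FastQC 0.11.7, trimmed with Trimmomatic 0.38, mapped with HISAT2 2.1.0 and counted with featureCounts 1.6.3. The methods name GRCh38, which the human gene identifiers and coordinates of the table match, whereas the notes name GRCm38 and mm10. The annotation release, strand setting and treatment of reads with several matches are not given in the sources used here. The labels name a directional library kit. The authors deposited TPM, summing to 1000000 per library over all listed genes.

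Reads were recovered from the TPM as whole numbers (tolerance 0.001) for 29896 of 29900 detected genes; on simulated data 99.2% of 6000 genes came out exactly. The length found equalled the GENCODE release 44 exon length for 13901 genes. Limits from 0 or few reads cover counting error only. Copies were sought with 150-base and 50-base exon windows.

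The main test was limma 3.58.1 (R 4.3.3; lmFit, eBayes with trend) on log2(TPM + 1), without a block, tested on simulated data. DESeq2 of the study's methods was not used, since TPM are not counts. Same-numbered libraries deviated together (correlations 0.115, 0.164 and 0.342 across genes), so the replicate number was taken as pairing and fitted as a block in an alternative. The alternatives were a pseudocount of 0.1, no filter, quantile normalization, TPM without mitochondrially encoded genes, no trend, the replicate block, each library left out, voom on recovered reads and other level thresholds; voom with the block and leaving out both replicate 3 libraries were added after seeing the data.

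The window, its genes and all lists were chosen with earlier results of these data known. Named genes were the broadly expressed members, those with at least 1 TPM in 3 libraries, those whose groups did not overlap at a mean of at least 0.1 TPM, up to 3 others per family by level, and the genes at the ends of the window. A further partner gene was left out of the lists and is not reported here.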

Additional observations from a re-analysis of the deposited data

How the results depend on the processing

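The number of genes of the window with a mean under 1 TPM was 37 of 46 whichever library was left out and after rescaling without mitochondrially encoded genes, 34 with a threshold of 0.1 TPM and 38 with a threshold of 2 TPM. With the replicate block, 0 genes of the window were called, and the number of genes with an unadjusted p under 0.05 over the whole table was 715 in place of 359. The genes called over the whole table were 6 with no filter on low TPM, 6 in limma without trend, 3 with voom and the replicate block, 2 without both replicate 3 libraries, and 1 to 2 when single libraries were left out. LENG8 was chosen on its values and passed the filter through A549 Rec alone, so that its part in the following counts is a description and no evidence of a difference. The genes of the window with an unadjusted p under 0.05 were 2, EPS8L1 beside LENG8, in limma without trend, with voom, and with voom and the block. Over the whole table these settings gave 412 of 17408, 437 of 21721 and 968 of 21721 genes. The genes of the window called were 1, LENG8 at a log2 difference of 3.72, with voom and the block, and 0 in the other settings. Leaving out 1 library gave a log2 difference of 1.81 to 2.08 for LENG8 and −0.35 to −0.25 for EPS8L1, against 3.66 and −0.51 with a pseudocount of 0.1 and 4.34 and −0.55 with voom. The adjusted p of EPS8L1 was 0.939 or higher in all alternatives. The groups did not overlap in 2 to 3 genes of the window, LENG8 and EPS8L1 among them in each setting. In the main setting 5.16% of all genes tested had groups that did not overlap. Groups that are apart stay apart when a library is left out, so that these counts are no test of either gene. The added gene was MBOAT7 without A549 MOCK replicate 3 and TNNI3 without A549 Rec replicate 2. Groups with fewer libraries separate more easily, and the share over all genes is not given for these settings. No reading is drawn from the added genes. Small differences changed sign. DNAAF3 was at 0.0066 with quantile normalization and −0.21 to 0.15 when single libraries were left out, CNOT3 at −0.0501 to 0.36, TNNT1 at −0.0596 to 0.21, PPP1R12C at −0.0806 to 0.0398 and PTPRH at −0.14 to 0.0318. Without both replicate 3 libraries PPP1R12C was at 0.0811 and PTPRH at 0.0702. The causes were not tested. For the 31 genes with 0 reads, the depth sets a limit for counting error alone, and no fold can be given. Reads with several matches that were left uncounted are not covered by this limit.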
